A study of Mus musculus with 4 samples.

Results

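Mature granulocytes of mouse bone marrow were compared with haematopoietic progenitor cells (HPC), the population from which granulocytes descend, on 1 Affymetrix array each. The comparison was the log2 signal of the granulocyte array minus that of the HPC array. It covered every probe set (a group of short probes for 1 transcript) that was no control, that was annotated to exactly 1 gene symbol, and whose signal reached 120 on at least 1 of the 2 arrays. Signals under 120 were raised to 120 before the logarithm. This took in 23171 of the 34945 probe sets with 1 symbol, or 13673 of 18193 gene symbols, out of 45101 probe sets in all.

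The granulocytes were bone marrow cells with high side granularity and strong staining for the surface antigen Gr-1, at a purity of 99.4% by morphology after Wright-Giemsa staining. HPC were cells enriched for the receptor c-Kit with magnetic beads, without Sca-1 and without the lineage antigens CD3, CD4 and CD8 (T cells), B220 (B cells), Gr-1 and CD11b (myeloid cells) and Ter119 (red cells). The study also measured 1 array each of long-term (LT-HSC, Sca-1 positive, CD34 negative) and short-term (ST-HSC, Sca-1 positive, CD34 positive) haematopoietic stem cells, whose signals are given here beside the comparison. All 4 populations were thawed, picked by morphology and packed, 50 or 100 at a time, into emptied egg coats, and RNA of 50 to 200 cells per type was amplified in 2 rounds and labelled with biotin. The series was made for work on cloning by nuclear transfer, with the arrays as a check of each donor type's profile. The strain, age and sex of the mice were not given in the sources used here. Each cell type had 1 array, so no difference has a replicate check, no test was made and no p-value is given. The arrays were on a common scale, so a signal is relative to the rest of its array and is no amount per cell. A lower signal can mean fewer cells with the transcript, less of it per cell, or a larger share of other transcripts. These cannot be told apart.

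Granulocytes arise from granulocyte-monocyte progenitors in the bone marrow. Dividing promyelocytes fill the primary (azurophil) granules with myeloperoxidase and serine proteases, later myelocytes and metamyelocytes make the secondary and tertiary granules, and the final, non-dividing cells gain receptors for chemoattractants, integrins and the superoxide-making NADPH oxidase. The nucleus becomes lobed and its chromatin condenses. The HPC gate holds myeloid, erythroid and megakaryocyte progenitors, many of them in cycle.

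The arrays were on 1 scale, with a 2% trimmed mean of 500 on each. The median signal of all probe sets was 132 on the granulocyte and 114 on the HPC array. All 18 hybridization controls, which are bacterial RNAs added in fixed amounts, were brighter on the granulocyte array, with geometric means of 5659 and 3653. The ratio of 3′ to 5′ signal of the Actb control was 5.75 on the granulocyte and 12.2 on the HPC array, so the 3′ bias was smaller in the granulocyte sample. Of 27 controls for bacterial genes that should be absent, 1 reached 120 on the granulocyte array, at 138, and none on the HPC array, where the highest was 90.3. Where a gene had several member probe sets, their differences had an SD of 1.08 on the log2 scale over 5700 genes (0.94 over 3379 genes with probe sets at 120 or more on both arrays). This SD is the only measure of spread used here, and it holds no biological variation. It also misses noise that all probe sets of a gene share, such as that from amplifying the RNA of few cells. The 100 probe sets just above the threshold had a brighter signal between 120 and 121.2 and a median dimmer signal of 49.8, with 50 of them brighter on the granulocyte array. The 100 just below it lay between 118.7 and 119.9, with a median dimmer signal of 61 and 64 brighter on the granulocyte array.

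The markers Itgam, Csf3r, Kit and Cd34 lay on the side the labels give. Myb and Myc, also taken as progenitor markers, lay within 2-fold, at 5708 against 7510 and 494 against 480. Itgam, which encodes CD11b, gave 2570 in granulocytes and 34.8 in HPC. Csf3r, the receptor for the granulocyte growth factor G-CSF, gave 16972 and 1017. Kit, the antigen used to enrich HPC, gave 583 in granulocytes and 3011 in HPC, with 5416 and 3144 in LT-HSC and ST-HSC. Its other probe set differed by −0.62 on the log2 scale. Cd34 gave 17.2 in granulocytes and 5190 in HPC, with 2384 in LT-HSC, which were gated as CD34 negative, and 9778 in ST-HSC. The LT-HSC array also held granule transcripts that were near or under 120 in HPC and ST-HSC, among them S100a8 at 6783, Ngp at 5299, Chil3 at 5265 and Lcn2 at 3332. Its signals are given below beside those of the other arrays, as values with no test.

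Many probe sets differed by 4-fold or more. In granulocytes 1485 (6.41%) were higher by this much and 2316 (10.0%) lower. At 16-fold or more, 247 were higher and 257 lower, and at 64-fold or more, 45 were higher and 11 lower. The lower side was thus broader at 4-fold and the higher side reached further. A total of 13421 probe sets (57.9%) lay within 2-fold, and the median difference was 0.04. As genes, each taken at its brightest member probe set, 2397 of 13673 (17.5%) stood 2-fold or more above HPC and 3455 (25.3%) below. For comparison, LT-HSC and ST-HSC stood 4-fold apart at 633 of 21284 probe sets (2.97%).

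The balance of the 2 directions depended on the scale. Lower probe sets made up 60.9% of those at 4-fold. They made up 80.2% (875 higher, 3547 lower) when the arrays were scaled to the hybridization controls, which moved the median of all differences by −0.47. Scaling to a common 75th percentile moved it by 0.16 and left 55.9% lower. Of the higher probe sets, 546 had an HPC signal under 120, and of the lower, 993 had a granulocyte signal under 120, so their folds are lower bounds. The higher probe sets had median signals of 2097 in granulocytes and 196 in HPC, with 333 and 300 in LT-HSC and ST-HSC. The lower ones had medians of 148, 1486, 1347 and 1356 in the same order. LT-HSC lay within 2-fold of HPC at 78.9% of the lower probe sets and ST-HSC at 77.7%, against 84.6% and 83.5% of all measured probe sets.

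**Figure D1:**
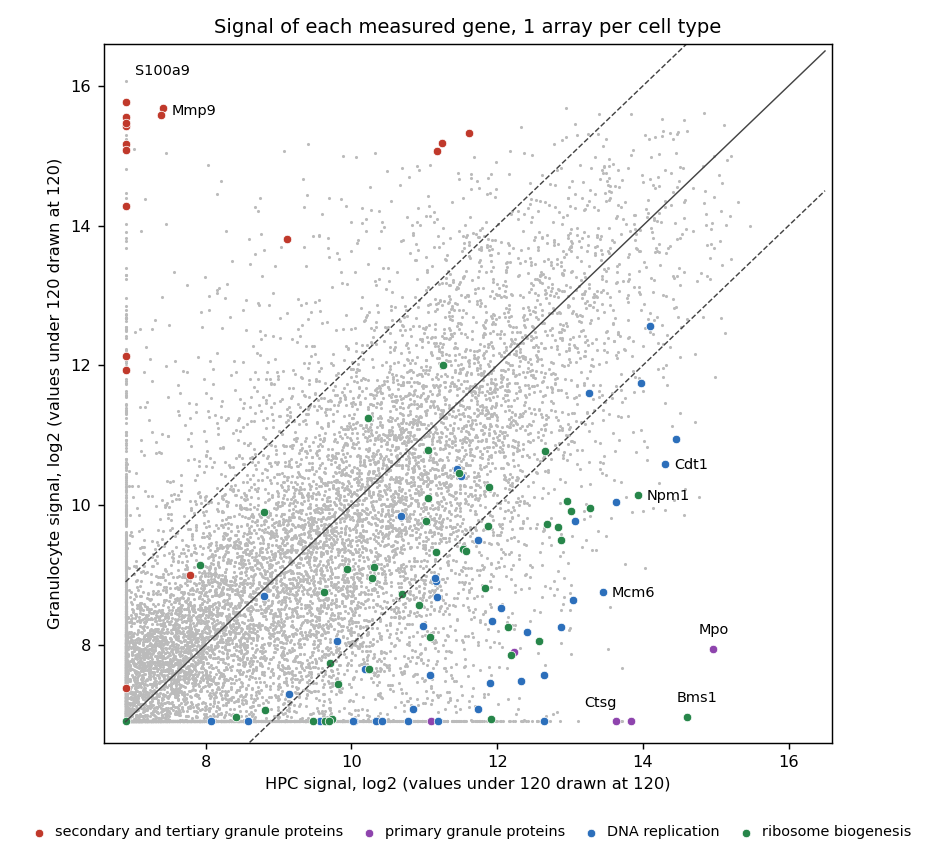
Signal of each measured gene on the HPC array (x axis) and the granulocyte array (y axis), both as log2 with values under 120 drawn at 120; each point is 1 gene at its brightest probe set, the solid line marks equal signal and the dashed lines 4-fold. Secondary and tertiary granule genes lie at the upper left, up to 55717 for Lcn2, while primary granule, DNA replication and ribosome biogenesis genes lie at the lower right.

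The 15 genes furthest above HPC were led by cytosolic and granule proteins of mature neutrophils. S100a9 and S100a8, whose proteins pair to form calprotectin, the main cytosolic protein of neutrophils, led with 68994 against 7.5 and 57218 against 113. These are differences of at least 575-fold and at least 477-fold. S100a9 gave 2203 in LT-HSC and 22.9 in ST-HSC, and S100a8 gave 6783 and 144. Both were thus highest in granulocytes and second in LT-HSC, while in HPC and ST-HSC S100a9 lay far under 120 and S100a8 near it.

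Next came granule cargo. Lcn2 (lipocalin 2, which binds bacterial siderophores) gave 55717 in granulocytes and 10.8 in HPC, with 3332 and 4.8 in LT-HSC and ST-HSC. Camp (the antimicrobial peptide cathelicidin) gave 48337, 9, 2451 and 54.7. Ltf (the iron-binding lactoferrin) gave 44166, 24.7, 2502 and 18.4. The 3 were at least 464-fold, at least 403-fold and at least 368-fold above HPC. Ngp (neutrophilic granule protein) gave 52499, 170, 5299 and 111, and was 309-fold higher. Chil3, a chitinase-like protein, gave 36963, 8, 5265 and 3.8, at least 308-fold higher. In each of these 5, LT-HSC was second to granulocytes.

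The metalloproteinases of secondary and tertiary granules differed from them in the stem cell arrays. Mmp8 (neutrophil collagenase) gave 45532 in granulocytes and 30.8 in HPC, with 77.4 and 84.6 in LT-HSC and ST-HSC. Mmp9 (gelatinase B) gave 48874 and 167, with 65.8 and 170, and its other probe set differed by 8.34 on the log2 scale. Neither reached 120 in LT-HSC, unlike the granule genes above. Mmp8 was at least 379-fold and Mmp9 292-fold above HPC.

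The rest of the 15 were surface, metabolic and interferon-related genes. Fpr2, a receptor for formylated bacterial peptides, gave 40124 against 102, and Cd177, a neutrophil surface glycoprotein, gave 34803 against 13.3. G0s2, an inhibitor of fat breakdown, gave 38770 against 72.3. Ifitm6, a membrane protein of the interferon-induced family, gave 34714 against 69.3. Slfn4, a schlafen family member of myeloid cells, gave 34636 against 80.8, and Plbd1, a phospholipase B-like protein, gave 34917 against 129. All 6 lay between 270-fold and at least 334-fold above HPC, and at 338 or less in both stem cell arrays.

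To show the DNA at 2 of these genes, the 250 bases before the first RefSeq start of S100a9 and Camp (mouse build GRCm38.p6) are printed 5′ to 3′. Each CG pair is in capitals, since the frequency of CG pairs is compared further below. S100a9 lies at chr3:90695722-90695971 on the minus strand, and Camp at chr9:109849457-109849706 on the minus strand.
S100a9: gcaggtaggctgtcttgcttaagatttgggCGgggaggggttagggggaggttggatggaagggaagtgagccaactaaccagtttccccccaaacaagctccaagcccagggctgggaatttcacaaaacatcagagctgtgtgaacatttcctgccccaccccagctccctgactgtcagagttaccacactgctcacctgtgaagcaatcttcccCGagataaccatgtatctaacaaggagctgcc
Camp: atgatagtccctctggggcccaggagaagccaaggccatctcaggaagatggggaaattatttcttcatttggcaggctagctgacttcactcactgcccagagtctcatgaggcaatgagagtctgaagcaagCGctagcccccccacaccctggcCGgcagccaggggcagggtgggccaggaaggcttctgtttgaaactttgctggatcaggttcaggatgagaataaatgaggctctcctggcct
Each holds 2 CG pairs in 250 bases.

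**Figure D2:**
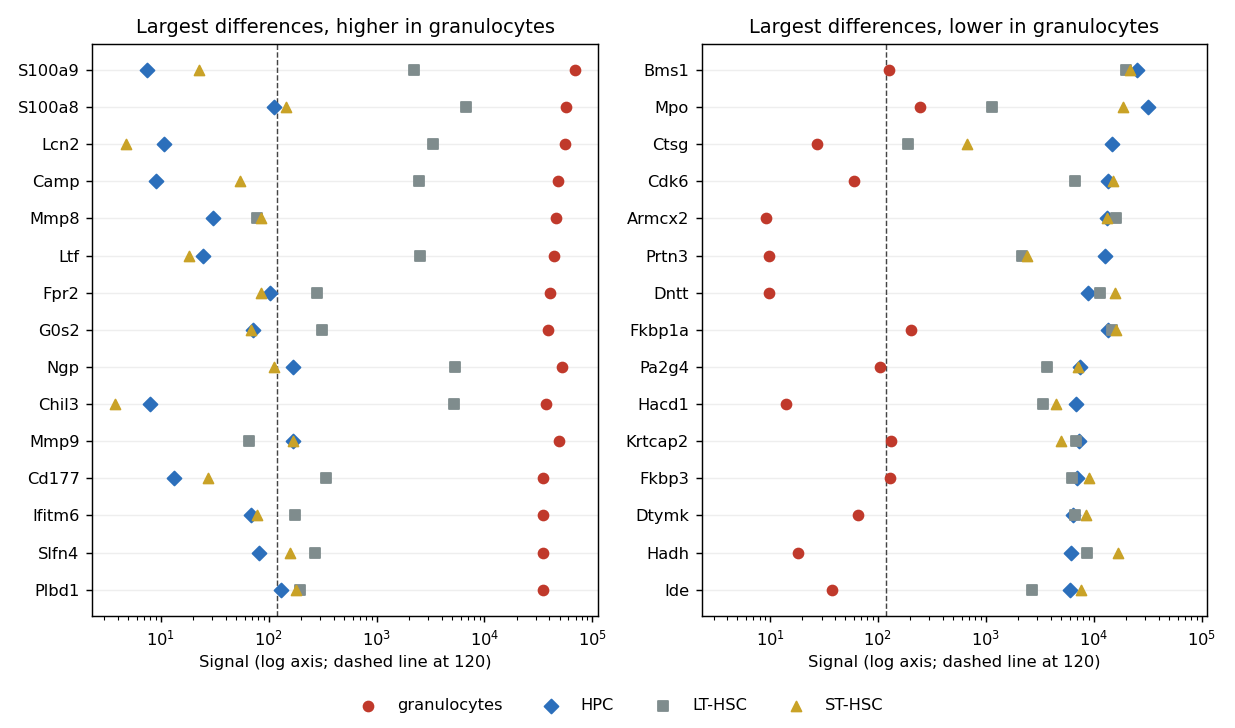
Signal of the 15 genes with the largest difference in each direction on the granulocyte, HPC, LT-HSC and ST-HSC arrays, on a log axis with a dashed line at 120; each symbol is 1 array. Granulocytes stand alone at the right for the higher genes and at the left for most lower genes, and LT-HSC is second for S100a9, S100a8, Lcn2, Camp, Ltf, Ngp and Chil3.

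Of the 15 genes furthest below HPC, 3 encode primary granule proteins. Mpo (myeloperoxidase, which makes hypochlorous acid) gave 246 in granulocytes and 32023 in HPC, with 1149 and 18718 in LT-HSC and ST-HSC, a 130-fold difference. Ctsg (the serine protease cathepsin G) gave 27.3, 14683, 188 and 671, and Prtn3 (proteinase 3) gave 9.8, 12638, 2164 and 2425. They were at least 122-fold and at least 105-fold lower in granulocytes. The granulocytes had no more than 246 for any of them.

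The other 12 lower genes had varied roles. Cdk6, the kinase that works with D-type cyclins in early G1, gave 59.7 in granulocytes and 13480 in HPC, with 6634 and 15134 in LT-HSC and ST-HSC. Dntt (terminal transferase, which adds bases at antigen receptor joints in lymphoid precursors) gave 9.7, 8862, 11455 and 15858. Dtymk (thymidylate kinase) gave 65.6, 6401, 6696 and 8391. The 3 immature types lay nearer to each other than to granulocytes at these genes. Pa2g4, a growth-related protein that binds ribosomes, gave 105 against 7462. Fkbp1a and Fkbp3, prolyl isomerases that bind FK506, gave 202 against 13390 and 129 against 6986. Hadh, an enzyme of mitochondrial fat oxidation, gave 18.1 against 6201, and Hacd1, an enzyme of fatty acid elongation, 14.1 against 6797. Krtcap2, a subunit of the enzyme that attaches glycans in the endoplasmic reticulum, gave 132 against 7233, and Armcx2 9.2 against 13262.

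Several of these lower genes had probe sets that disagreed in size. Bms1, a nucleolar GTPase of small-subunit assembly, stood first at 125 against 25017 (200-fold), but its other probe set differed by −2.71 against −7.64. Ide, the insulin-degrading enzyme, ranged from −5.64 to −0.02 over 3 probe sets, and Fkbp1a from −6.05 to −2.11 over 4. Among genes at 4-fold with several probe sets, 298 of 348 higher genes and 598 of 891 lower genes had all of them on 1 side. The lower genes were thus less uniform across their probe sets.

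The granule genes split by the stage at which they are made. All 5 primary granule genes with a probe set were at least 4-fold lower in granulocytes, with a median difference of −6.72. Besides Mpo, Prtn3 and Ctsg these were Elane (neutrophil elastase), at 51.2 against 2181, and Ctsc (cathepsin C, which activates the serine proteases), at 239 against 4788 with another probe set of opposite sign. Of 17 secondary and tertiary granule genes, 16 were at least 2-fold higher, of which 15 by 4-fold or more, with a median of 7.38. The median over all 18193 genes was 0. The 2 groups thus lay on opposite sides of HPC, with no member of either on the other's side by 2-fold.

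Some members of the secondary and tertiary list were already on in HPC and others were not. Olfm4 (olfactomedin 4, found in some neutrophils only) gave 19934 in granulocytes and 19 in HPC, and Pglyrp1, which binds bacterial peptidoglycan, gave 4486 and 25.3. Lyz2 (lysozyme), Hp (haptoglobin) and Slpi (a protease inhibitor) were on in HPC, at 3122, 2424 and 2309, and gave 41013, 37301 and 34266 in granulocytes. They were 3.72 to 3.94 higher on the log2 scale. In LT-HSC and ST-HSC, Hp was at 22.5 and 8.9, so of the 4 arrays it reached 120 on the granulocyte and HPC arrays. Fcnb (ficolin B) was 1.22 higher, and Stfa3 (a stefin) gave 167 against 55.5, a difference of 0.48.

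The sequence before Mpo and Ngp is shown because matches to the binding motifs of 2 myeloid transcription factors fall in the promoters of these granule genes. Capitals mark GAGGAAGT, a site form of PU.1, in Mpo (chr11:87793534-87793783 on the plus strand), and TTGCNNAA, a site form of the C/EBP family, in Ngp (chr9:110419558-110419807 on the plus strand), each searched on both strands of the RefSeq windows. A CCAAT box can overlap TTGCNNAA.
Mpo: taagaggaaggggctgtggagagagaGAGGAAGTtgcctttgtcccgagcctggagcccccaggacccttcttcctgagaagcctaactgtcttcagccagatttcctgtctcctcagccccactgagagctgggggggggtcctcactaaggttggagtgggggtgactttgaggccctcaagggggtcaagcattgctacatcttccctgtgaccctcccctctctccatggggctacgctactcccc
Ngp: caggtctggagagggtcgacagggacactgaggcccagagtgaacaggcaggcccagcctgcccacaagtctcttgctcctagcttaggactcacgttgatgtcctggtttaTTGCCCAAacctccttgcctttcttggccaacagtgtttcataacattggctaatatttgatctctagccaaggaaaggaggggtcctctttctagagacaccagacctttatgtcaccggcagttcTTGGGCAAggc
Over 300 bases around the first start, the PU.1 form stood in 4 of 5 primary granule promoters, against 3.01% of the 10948 measured genes with a promoter entry. The C/EBP form stood in 6 of 15 secondary and tertiary granule promoters, against 8.44% of measured genes. Among genes 4-fold higher its share was 10.9%, and among all RefSeq promoters 10.8%. It also stood in 4 of 9 promoters of a list of oocyte and cumulus genes, so it was not particular to granule genes. It stood in none of the 5 primary granule promoters and the PU.1 form in 2 of the 15. A match is a run of letters and no measure of binding.

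Cytosolic neutrophil proteins followed the later granules. Of 12 genes, 9 were at least 4-fold higher and 1 lower, with a median of 2.83. Padi4, which converts histone arginine to citrulline, gave 10084 against 43.2, and Alox5, which starts leukotriene synthesis, gave 9121 against 214. Alox5ap, its activating partner, was on in all 4 arrays at 36839, 7042, 4132 and 8962. Anxa1 (annexin A1, an anti-inflammatory protein of neutrophils) gave 52474 against 7920, 2.73 higher. S100a4 was the exception at 249 against 1094, lower by 2.14 on the log2 scale and on another side than S100a6, S100a8 and S100a9. Lta4h, which makes leukotriene B4, gave 13568 and 7062, a difference of 0.94.

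Receptors for chemoattractants and cytokines were at least 2-fold higher at 15 of 21 genes and lower at 2, with a median of 1.61. Cxcr2, the receptor for the neutrophil-recruiting chemokines, gave 2113 in granulocytes and 43.8 in HPC, with 34.3 and 28.1 in LT-HSC and ST-HSC. C5ar1, the receptor for complement C5a, gave 2112, 38.8, 17.2 and 10.6. Both were under 120 in all 3 immature types, and at least 17.6-fold higher in granulocytes, although the other probe set of C5ar1 differed by 0.09 on the log2 scale. Ltb4r1, for leukotriene B4, gave 5876 against 137, and Ccr1 gave 19648 against 409. The interleukin 1 decoy receptor Il1r2 gave 36764 against 678, and the antagonist Il1rn 4089 against 176.

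Among the growth factor receptors, Csf3r was 4.06 higher, Csf2ra (the GM-CSF receptor's alpha chain) 4.03 higher, and Csf2rb, its shared beta chain, 1.13 higher at 13267 against 6047. Cxcr4, the receptor that holds cells in the marrow, gave 5914 in granulocytes and 5240 in LT-HSC, but 1443 in HPC and 1057 in ST-HSC. Cx3cr1, at 34.4 against 311, and Tnfrsf1b, at 1824 against 4210, were the 2 lower members.

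Genes that sense microbes were higher at 14 of 20, none was 2-fold lower, and the median was 2.53. Il1b, the main inflammasome product, gave 33532 against 176. Clec7a (dectin 1, for fungal glucan) gave 32780 against 942 and Cd14 (a co-receptor for lipopolysaccharide) 26441 against 1768. Tlr2 gave 23610 against 3197, and Tlr4 941 against 29.9. The adapters and effectors moved less: Myd88 was 0.92 higher, Pycard 0.74 higher, and Casp1 gave 1699 against 1824. Nfkbia, the inhibitor of NF-kappaB, was bright throughout at 41818, 24974, 20519 and 27463.

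Fc, lectin and paired receptors were the list with the second highest median, 4.12, and 14 of 16 stood at least 2-fold above HPC and none below. Pilrb1 gave 21590 against 53.6, Fcgr4 (an IgG receptor) 10038 against 116, and Pirb 6020 against 13.5. Trem1, which amplifies inflammatory signals, gave 21453 against 430. Their shared signalling adapters were on in HPC: Tyrobp gave 30654 against 4052, and Fcer1g 14155 against 1088. The adapters were also low in the stem cells, at 318 and 981 for Tyrobp and 278 and 308 for Fcer1g. Fcgr2b, the inhibitory IgG receptor, gave 1720 against 1707, with probe sets of both signs.

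All 6 NADPH oxidase genes were at least 4-fold higher, with a median of 3.56. Cybb, the catalytic subunit, gave 14387 in granulocytes and 555 in HPC, with 192 and 74.6 in LT-HSC and ST-HSC. Its membrane partner Cyba gave 16981, 1373, 1289 and 924. The cytosolic subunits Ncf4 and Ncf1 gave 28486 against 1945 and 34348 against 4621, and the GTPase Rac2 22564 against 3817. Hvcn1, the proton channel that balances the charge the oxidase moves, gave 3843 against 340. The catalytic subunit had the largest difference, 4.70, and Rac2 the smallest, 2.56.

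Adhesion genes went both ways: 7 of 16 were at least 2-fold higher and 4 lower. Among all measured genes, 17.5% were 2-fold higher and 25.3% lower, so the lower count alone does not set this list apart. The leukocyte integrins were higher, with Itgb2 (CD18) at 29562 against 1917 and Itgal at 5177 against 2129. Itgb2l, a neutrophil integrin chain, gave 15470 against 138, and Ceacam10 gave 22542 against 50.3. Selplg, the ligand of selectins, was 2.21 higher. Lower were Icam1, at 372 in granulocytes and 11968, 11962 and 9786 in the other 3, Itga6, at 146 against 3143, Itgb1, at 372 against 1257, and Esam, at 87.9 against 387. Itgb2 and Itgal of the beta 2 family were thus higher, and Itgb1 and Itga6 of the beta 1 family lower. Itga4, another partner of Itgb1, gave 1098 against 1640, with probe sets from −1.02 to 1.12.

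Genes of the actin cytoskeleton were at least 2-fold higher at 14 of 21 and lower at none, with a median of 1.76. Fgr, a Src-family kinase of adhesion signalling, was highest at 5849 against 153. Gsn (gelsolin, which severs filaments) gave 29921 against 2168, Capg 13082 against 819, and Was, the activator of branched actin in blood cells, 7675 against 721. At the brightest probe sets, some core genes of the system differed less: Cfl1 (cofilin) was 0.75 higher, Arpc2 0.86 higher, and Actb gave 14204, 12255, 14062 and 14544 on the 4 arrays. The other probe set of Actb, however, was 4.01 higher in granulocytes on the log2 scale.

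Transcription factors showed a change of set rather than a loss of all progenitor factors. Of 17 myeloid maturation factors, 13 were at least 2-fold higher and 1 lower, with a median of 2.32. Cebpd gave 32337 in granulocytes and 1073 in HPC, Cebpb 19016 and 4996, and Spi1 (PU.1) 4175 and 654. Cebpa, which acts earlier in the lineage, gave 731 and 856, and Gfi1, a repressor needed for neutrophils, 354 and 350. Mxd1, which opposes Myc, gave 19966 against 2145. Irf8, which steers progenitors towards monocytes, was the lower member at 653 against 10505, with 3320 in LT-HSC and 2122 in ST-HSC.

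Of 23 progenitor and stem cell factors, 12 were at least 2-fold lower and 1 (Hhex, by 1.01) higher, with a median of −1.04. Hoxa9 gave 74 in granulocytes and 3961 in HPC, with 8582 and 9430 in LT-HSC and ST-HSC. Tal1 gave 95.7, 3782, 6345 and 3014, and Gata2 gave 121, 2394, 4953 and 3841. Hlf, a factor of stem cells, gave 46, 1566, 10387 and 3458. These 4 were lowest in granulocytes, with differences from HPC of −5.04 for Hoxa9, −4.98 for Tal1, −4.31 for Gata2 and −3.71 for Hlf. The other probe sets of Hoxa9 and Hlf showed little difference, at −0.22 and −0.19, and that of Gata2 differed by −2.53. Other factors of immature cells stayed within 2-fold: Myb gave 5708 against 7510, Myc 494 against 480, Lmo2 2594 against 4409 and Ikzf1 8945 against 6661. Runx1 gave 9.7 against 1873, but its probe sets differed in sign.

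Surface genes of progenitors were at least 2-fold lower at 8 of 15 and higher at none, with a median of −1.37. After Cd34 the lowest were Flt3, a receptor of lymphoid and myeloid progenitors, at 300 against 3740, and Slc7a5, a transporter of large neutral amino acids, at 40.4 against 1362. Its partner chain Slc3a2 gave 8437 against 7138. Cd27 gave 6.4 against 734 and Procr, a stem cell marker, 13.4 in granulocytes, 311 in HPC and 6229 in LT-HSC.

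**Figure D3:**
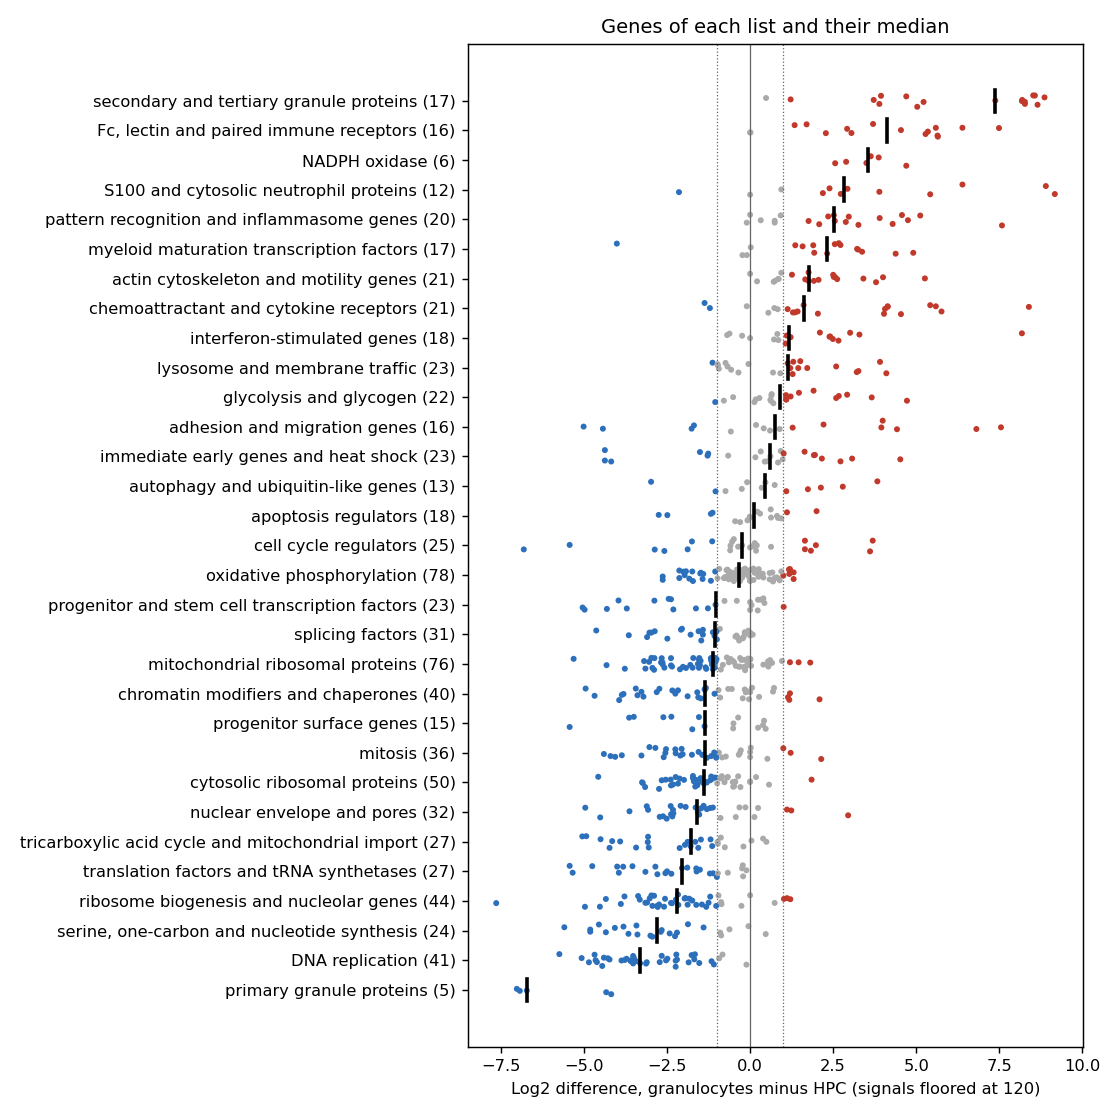
Log2 difference, granulocytes minus HPC with signals raised to at least 120, of each gene in 31 gene lists; points are genes (red 2-fold or more higher, blue 2-fold or more lower), black bars the median over genes with a probe set, whose number is in parentheses. Medians run from 7.38 for secondary and tertiary granule proteins to −6.72 for primary granule proteins, and the DNA replication list lies almost wholly below 0.

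The genes of DNA replication were the most uniformly lower of the large lists. Of 41, 38 were at least 2-fold lower, 31 at least 4-fold lower and none 2-fold higher, with a median of −3.31. The MCM helicase, loaded on origins before S phase, was low in 6 of its 6 core subunits: Mcm6 gave 434 in granulocytes and 11163 in HPC, with 10689 and 10124 in LT-HSC and ST-HSC. Mcm5 gave 307, 7512, 4304 and 4368, and the differences of Mcm2, Mcm3, Mcm4 and Mcm7 ran from −4.40 to −3.31 on the log2 scale. The loading factors Cdc6 and Cdt1 gave 136 against 3404 and 1541 against 20274. Dut, which destroys dUTP, gave 190 against 6379, and the ribonucleotide reductase subunit Rrm2 1054 against 12720.

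The replication genes did not all fall to the threshold. Pcna, the sliding clamp, gave 6065 against 17486, Rpa1, which coats single strands, 3442 against 16022, and Fen1, which trims Okazaki fragments, 3099 against 9810. The differences were −1.53, −2.22 and −1.66. Gins3 gave 414 against 448 and Rfc2 1465 against 2794, and with Cdc45, whose probe sets had both signs, these made up the 3 genes within 2-fold.

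The 250 bases before the first RefSeq start of Dut and Mcm6 are printed as examples of the lower side. In Dut (chr2:125247265-125247514 on the plus strand) CG pairs are in capitals. In Mcm6 (chr1:128359706-128359955 on the minus strand) capitals mark TTTNGCGC, a site form of the E2F factors, on either strand. The other E2F form searched was GGCGGGAA.
Dut: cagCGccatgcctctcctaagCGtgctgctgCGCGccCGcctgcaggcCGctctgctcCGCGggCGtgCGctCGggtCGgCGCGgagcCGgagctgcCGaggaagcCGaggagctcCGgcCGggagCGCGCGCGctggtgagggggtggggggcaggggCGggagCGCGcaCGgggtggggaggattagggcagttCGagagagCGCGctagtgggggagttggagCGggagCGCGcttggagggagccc
Mcm6: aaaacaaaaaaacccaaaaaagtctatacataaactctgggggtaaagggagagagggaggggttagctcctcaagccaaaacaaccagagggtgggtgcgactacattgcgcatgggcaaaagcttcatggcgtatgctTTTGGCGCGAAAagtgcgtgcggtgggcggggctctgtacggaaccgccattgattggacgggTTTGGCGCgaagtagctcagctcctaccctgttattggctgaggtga
Dut holds 33 CG pairs where S100a9 and Camp hold 2 each. Mcm6 holds 3 matches to TTTNGCGC, of which the first 2 overlap on opposite strands. That form stood in 9 of 34 replication promoters, in 2.32% of measured genes, in 4.61% of the genes 4-fold lower and in 0.791% of those 4-fold higher. GGCGGGAA stood in 6 of the 34 and in 3.79% of measured genes. TTTNGCGC was added to the search after results had been seen.

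Mitotic genes were lower less evenly. Of 36, 23 were at least 2-fold lower, 15 at least 4-fold lower and 2 higher, with a median of −1.37. Aurkb (the kinase of the chromosomal passenger complex) gave 48.9 in granulocytes and 2540 in HPC, with 1447 and 1636 in LT-HSC and ST-HSC. Cdk1 gave 110, 2204, 1076 and 2044, and the condensin subunits Ncapd2 and Smc2 gave 107 against 2005 and 75.9 against 1154. The other probe sets of Ncapd2 and Smc2 differed by less, at −0.17 and −0.80 on the log2 scale. Mki67, the proliferation marker, kept 1056 against 4526 and Top2a 1745 against 12543. The 2 higher genes were Cdc25b, a phosphatase that activates Cdk1, at 1034 against 234, and Cks2, a Cdk1 subunit, at 14629 against 6294. Ccnb2 gave 1285 against 1593, Aurka 341 against 342, and Ccna2 892 against 1480, so several G2 genes had like signals in both cell types.

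In the promoters of the mitosis list, 21 of 30 held TTTGAA, the letters of the cell cycle homology region (CHR), and 24 of 30 held a CCAAT box (CCAAT), on either strand of 300 bases. Among measured genes 12.3% held the first and 38.1% the second. Among the 4-fold lower genes as a whole the shares were 14% and 40.9%, which is near the shares of all measured genes. The promoter of Cdk1 (chr10:69352913-69353162 on the minus strand) is shown with both motifs in capitals (ATTGG is CCAAT on the other strand).
Cdk1: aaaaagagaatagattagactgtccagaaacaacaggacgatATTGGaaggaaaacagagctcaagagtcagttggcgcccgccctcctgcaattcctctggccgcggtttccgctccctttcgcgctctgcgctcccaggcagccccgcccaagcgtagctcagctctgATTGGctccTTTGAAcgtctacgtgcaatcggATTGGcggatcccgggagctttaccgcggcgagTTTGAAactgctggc
It holds 5 matches in 250 bases.

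Cell cycle regulators lay on both sides, with 6 of 25 at least 2-fold higher, 7 lower and a median of −0.24. Over all measured genes 17.5% were 2-fold higher and 25.3% lower, so the counts alone do not set this list apart. On the lower side were the G1 kinases, Cdk6 (above) and Cdk4, at 63.7 in granulocytes and 5159, 3633 and 5940 in the other types. Ccne1, the cyclin of S phase entry, gave 281 against 2053. On the higher side were inhibitors: Cdkn2d, which blocks Cdk4 and Cdk6, gave 11776 in granulocytes and 910, 1229 and 2352 in the others, and Cdkn1b (p27) 826 against 233. The antiproliferative genes Tob1, Btg1 and Btg2 gave 3119 against 256, 18933 against 6048 and 8141 against 2590. At its brightest probe set Cdkn1a (p21) went the other way from these inhibitors, at 876 against 5252, and the cyclin Ccnd3 was higher at 2677 against 677. The other probe sets of Cdkn1a and Cdkn1b showed little difference, at −0.22 and 0.18 on the log2 scale. The 3 probe sets of Ccnd3 ran from 0.40 to 1.98.

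The machinery of ribosome production was lower along with replication. Of 44 ribosome biogenesis and nucleolar genes, 35 stood at least 2-fold below HPC and 3 above, with a median of −2.20. Npm1 and Ncl, abundant nucleolar proteins, gave 1133 against 15617 and 966 against 8293. Fbl, which methylates ribosomal RNA, gave 450 against 3650. Members of the box H/ACA particles, which guide pseudouridine formation, were among the lowest: Dkc1 at 123 against 3862, Nhp2 at 266 against 6105 and Gar1 at 305 against 4527. Polr1a, the large subunit of RNA polymerase I, was higher by 1.21, though with probe sets of both signs, and Ubtf, its upstream factor, by 1.02.

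Ribosomal proteins themselves were lower by less. Of 50 cytosolic ribosomal protein genes, 31 stood at least 2-fold below HPC and 1 above, with a median of −1.38. Some kept most of their signal in granulocytes, such as Rplp0 at 20434 against 29322 and Rps29 at 24929 against 34847. The lowest were Rpl14, at 158 against 3751, and Rps19, at 1817 against 17108. The 76 mitochondrial ribosomal protein genes had a median of −1.11, with 44 at least 2-fold below HPC and 3 above. Mrps6 was lowest at 72.5 against 4752, and Mrpl33 highest at 2879 against 819.

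Translation factors and tRNA synthetases were at least 2-fold lower at 21 of 27 and higher at none, with a median of −2.05. The synthetases Eprs, Tars and Iars gave 122 against 5268, 93.3 against 4855 and 11.7 against 3240. The elongation factor Eef1a1, in contrast, gave 32539, 37748, 29588 and 38306 on the 4 arrays, and the initiation helicase Eif4a1 11023 against 12848. Within the list the synthetases thus held the largest differences, although Rars was at 2622 against 2836.

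Serine, one-carbon and nucleotide synthesis was at least 2-fold lower at 19 of 24 genes and higher at none, with a median of −2.81. Phgdh, the first enzyme of serine synthesis, gave 245 in granulocytes and 11777 in HPC, with 10976 and 10777 in LT-HSC and ST-HSC. The mitochondrial one-carbon enzymes Shmt2, Mthfd1l and Mthfd2 gave 98.1 against 3372, 25 against 2814 and 515 against 5409. The purine enzymes Paics and Gart gave 1601 against 17098 and 190 against 1519, and Umps and Ctps of pyrimidine synthesis 320 against 4482 and 67.7 against 2432. The serine and mitochondrial one-carbon enzymes named above were each lower by more than 3 on the log2 scale at their brightest probe sets. Others of the list differed by less, with Psat1 at −2.42, Psph at −1.87 and Shmt1 at −0.87. Over 4 probe sets each, Phgdh ran from −6.49 to −2.95 and Shmt2 from −4.81 to −1.30.

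**Figure D4:**
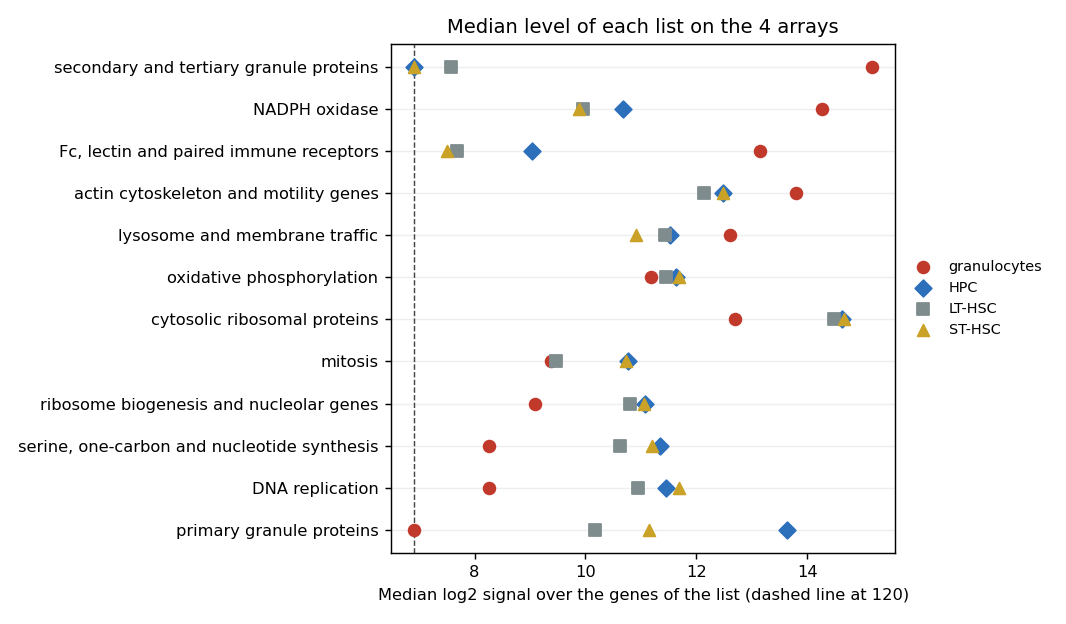
Median log2 signal of 12 gene lists on the granulocyte, HPC, LT-HSC and ST-HSC arrays, with a dashed line at 120; each symbol is the median over the genes of a list on 1 array. For DNA replication the median is 8.26 in granulocytes and 11.45, 10.95 and 11.69 in the other types, while for mitosis LT-HSC (9.47) lies near granulocytes (9.38).

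The mitochondrial genes divided by function. Of 27 genes of the tricarboxylic acid cycle and of protein import, 19 stood at least 2-fold below HPC and none above, with a median of −1.79. Fh1 (fumarase) gave 152 against 5029, Idh2 321 against 3466, and the matrix chaperones Hspa9 and Hspd1 548 against 16665 and 1274 against 19165. The other probe set of Idh2 differed by −0.44 on the log2 scale. Mdh2 gave 28407 against 20245. Of 78 genes of the respiratory chain and ATP synthase, 16 stood at least 2-fold below HPC and 5 above, against 25.3% and 17.5% of all measured genes. The median of these 78 was −0.33 (−0.94 when scaled to the hybridization controls). The 14 ATP synthase genes among the 78, separated after their values were seen, had a median of −0.87 with 6 at least 2-fold lower. The other 64 had a median of −0.24 with 10 lower. Cox4i1 gave 15647 against 15968, Ndufa1 11405 against 6848 and Atp5b 3122 against 12222.

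Glycolysis and glycogen use lay on the other side, with 11 of 22 genes at least 2-fold higher, 1 lower and a median of 0.89, which was 0.26 when scaled to the hybridization controls. Pygl, which breaks down glycogen, gave 33603 in granulocytes and 1276 in HPC, with 1520 and 934 in LT-HSC and ST-HSC. Pfkfb4, a regulator of glycolytic flux, gave 6550 against 518, Hk3, a hexokinase of myeloid cells, 17462 against 2301, and the glucose transporter Slc2a3 33743 against 5285. Tpi1 was the lower member at 3426 against 7097. Lysosomal and membrane traffic genes were at least 2-fold higher at 12 of 23 and lower at 1, with a median of 1.13. Those with the largest differences serve granule release: Rab3d gave 3363 against 196, Stx11 24478 against 1633 and Snap23 7012 against 756.

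The interferon-stimulated list was higher at 11 of 18 and lower at none, with a median of 1.16. After Ifitm6 came Ifitm3, which blocks virus entry, at 27656 against 2829, with 10890 in LT-HSC and 6632 in ST-HSC. Oasl2 gave 967 against 55.5 and Rsad2 2153 against 340, with 1497 and 2101 in the stem cells. Granulocytes and stem cells thus both stood above HPC at these 3 genes. Mx1 was under 120 in granulocytes and HPC, at 76.7 and 77.3.

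Nuclear structure genes were mostly lower. Of 32 nuclear envelope and pore genes, 23 stood at least 2-fold below HPC, 3 above and 6 within 2-fold, with a median of −1.61. Lbr, the lamin B receptor whose dose governs lobing of the neutrophil nucleus, gave 22338 in granulocytes and 10344, 7833 and 8253 in the others. Sun2 gave 10590 against 4471, and Lmnb1 10727 against 1388, although another probe set of Lmnb1 had the opposite sign. Lmna, whose protein is scarce in neutrophils, gave 105 against 3735, also with probe sets of both signs, and the import factor Ranbp1 450 against 5568. Pore components such as Nup133, at 95.4 against 2728, and Nup205, at 413 against 3557, were on the lower side. The 5 probe sets of Nup133, however, ran from −4.51 to −0.06 on the log2 scale.

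Chromatin genes had 22 of 40 members at least 2-fold lower and 4 higher, with a median of −1.35. The DNA methyltransferases Dnmt1 and Dnmt3b gave 484 against 7046 and 237 against 6058, with Dnmt3b at 9514 in LT-HSC and 10540 in ST-HSC. Hdac2, a histone deacetylase, gave 209 against 6442, and Ezh2, the methyltransferase of Polycomb complex 2, 628 against 4407. Set and Nap1l1, histone chaperones, gave 889 against 9352 and 2241 against 21605. On the other side, Tet2, which oxidises methylcytosine, gave 5999 in granulocytes and 1407, 1079 and 1380 in the others, and the demethylase Kdm6b 3289 against 1449. Enzymes that write and that remove DNA methylation thus had opposite differences for Dnmt1, Dnmt3b and Tet2. Splicing factors had a median of −1.07, with 18 of 31 at least 2-fold lower, from Prpf19 at 1112 against 13978 to U2af2 at 930 against 960.

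Stress and immediate early genes lay on both sides, with a median of 0.61 that ran from 0.04 to 0.84 over all settings. Fos gave 21297 in granulocytes and 926 in HPC, with 1578 and 5119 in LT-HSC and ST-HSC, Dusp1 18843, 2240, 1458 and 1827, and Ier5 28988, 7501, 7380 and 11283. Jun and Atf3 lay within 2-fold, and Dusp2 was lower, at 1064 against 3040. Among heat shock genes the largest differences were lower, with Hspa1a at 975, 20136, 14508 and 5318, Hspa1b at 1072 against 22133, and Hsph1 at 994 against 18071. Dnaja1 gave 13899 against 12418, and Dnajb1 5203 against 12454 with probe sets of both signs. All samples were sorted and thawed, and the part of handling in these values was not tested. Apoptosis regulators had a median of 0.11 (−0.53 when scaled to the hybridization controls), with 2 of 18 at least 2-fold higher and 4 lower. Over all measured genes 17.5% were higher and 25.3% lower by this much. Mcl1, on which neutrophil survival depends, gave 40480 against 22650, and Bcl2 90 against 675 with probe sets of both signs.

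Markers of other cells were examined in both samples, as each gate could hold other types. Their part in the differences above was not tested. Among all measured genes, 17.5% were 2-fold higher and 25.3% lower, and the counts of the other-cell lists below are to be read beside these shares. Of 15 monocyte and macrophage genes, 2 were at least 2-fold higher and 5 lower, and their signals summed to 21843 in granulocytes and 30362 in HPC. Csf1r, the receptor for the monocyte growth factor, gave 13089 and 11928, with 210 and 523 in the stem cells, while C1qa and Mertk were under 120 on all 4 arrays. F13a1, Ms4a6b and Ly86 were on the HPC side, at 2111, 2197 and 4155 against 151, 182 and 552.

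Of 15 B lineage genes, 7 were lower in granulocytes and 2 higher, with sums of 11656 and 31429. Ighm made 7732 and 9603 of these sums, with probe sets of both signs. The 2 higher genes were Pax5, at 255 against 86.2, and Cd74, at 993 against 490. Vpreb1 and Igll1, which form the surrogate light chain, gave 28.4 and 41.6 in granulocytes, 2532 and 1862 in HPC and 4815 and 4234 in LT-HSC. In ST-HSC they were at 15 and 29.1. Cd79a gave 114 and 177. Of 17 erythroid genes, 4 were lower and 1 higher, with sums of 8498 and 19886. Klf1 and Gata1, which define that lineage, gave 188 and 247 in HPC, and Hba-a1 and Alas2 were under 120 there, while Car2 gave 80.4 against 2337. Of 12 megakaryocyte genes, 1 was lower and 1 higher, with sums of 28340 and 11887, of which Plek, also a gene of leukocytes, made 23973 and 8144. Pf4 was under 120 in both samples.

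Of 14 mast cell, basophil and eosinophil genes, 3 were lower and 2 higher, with sums of 30653 and 3459. Hdc, which makes histamine, gave 29776 of the granulocyte sum, against 262 in HPC, whereas Epx, Prg3, Il5ra and Ccr3 of eosinophils and Fcer1a of mast cells and basophils were under 120 in both samples. Prg2, also of eosinophils, gave 291 against 126, and Siglecf 13.8 against 246. Mcpt8 and Cpa3 gave 1096 and 1186 in HPC and 20.3 and 128 in granulocytes. Of 14 T and NK cell genes, 3 were higher and 2 lower, with sums of 5586 and 3718. Cd3d gave 3890 against 206, but Cd3e gave 152 and 153 and Cd3g 25.6 and 102. Of 11 stromal and endothelial genes, 1 was lower, with sums of 1976 and 5366, owing to Pdgfrb at 55.1 against 3899.

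Because the cells were packed into egg coats, oocyte and cumulus genes were included. Of 16, 5 stood at least 2-fold above HPC and none below, with sums of 9787 and 1549. Inhba gave 6566 in granulocytes and 35.5 in HPC, with 459 and 31.7 in LT-HSC and ST-HSC, and Gdf9 gave 504 and 170. Of the oocyte genes, Zp1, Zp3, Bmp15, Nlrp5 and Mos were under 120 in both samples, while Zp2 gave 175 against 18.2, Oosp1 166 against 89.3 and Dppa3 174 against 160.

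The promoters of the 2 directions differed in base composition. RefSeq windows of 300 bases (250 before and 50 after the first listed start, build GRCm38.p6) were found for 632 of 789 genes at least 4-fold higher, 1280 of 1564 at least 4-fold lower and 10948 of the 13673 measured genes. The ratio of observed to expected CG pairs had a median of 0.62, 0.8 and 0.733. A window with a ratio under 0.6 is called CpG-poor here. Among the 149 genes at least 16-fold higher, 69.8% were CpG-poor, with a median ratio of 0.275. The share was 40.6% at 4 to 16-fold higher, 37.9% at 2 to 4-fold higher and 39.1% within 2-fold. It was 21.4% at 2 to 4-fold lower, 19.5% at 4 to 16-fold lower and 27.3% at 16-fold lower. Over all 27025 promoters of the RefSeq set, measured or not, the median ratio was 0.389, and 36.5% had a ratio of 0.6 or more.

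**Figure D5:**
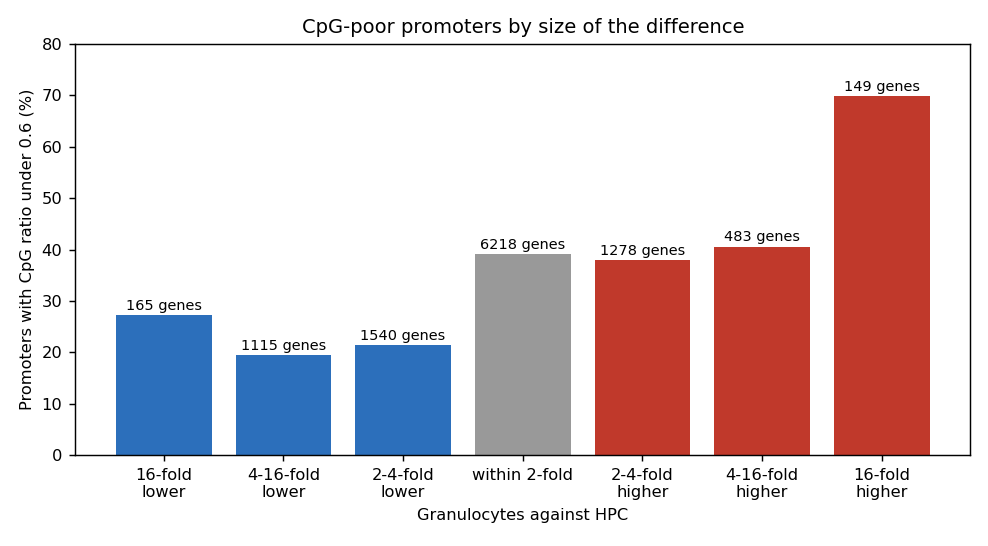
Share of genes whose 300-base promoter window has an observed-to-expected CG ratio under 0.6, in percent from 0, by the size of the difference between granulocytes and HPC; the number over each bar is the genes in the bin. The share is 69.8% for genes at least 16-fold higher and between 19.5% and 27.3% in the 3 bins of lower genes.

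The composition did not follow the direction within the granule genes. All 15 secondary and tertiary granule promoters and all 5 primary granule promoters were CpG-poor, with median ratios of 0.156 and 0.314, although the first group was higher and the second lower. CpG-poor promoters were also common in lists of other cells. They made up 12 of 12 for mast cell, basophil and eosinophil genes, 9 of 9 for T and NK cell genes, and 4 of 7 for stromal and endothelial genes. In the printed examples the ratio was 0.101 for S100a9, 0.125 for Camp and 0.916 for Dut. Of the replication promoters 8 of 34 were CpG-poor, of the mitosis promoters 2 of 30, and of the mitochondrial ribosomal protein promoters 5 of 67. The genes 4-fold higher and lower had similar lengths, with medians of 21476 and 24335 bases against 21837 over all measured genes.

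Some genes of like difference lay side by side. Among 16464 protein-coding genes placed in order on the RefSeq annotation, 13 runs of 3 or more neighbours were all at least 4-fold higher (42 of the 747 genes placed at this difference, 5.62%) and 18 runs all at least 4-fold lower (58 of 1532, 3.79%). The examples here were chosen after their values were seen. The higher runs included members of 1 family next to each other: the C-type lectin receptors Clec4a2, Clec4n, Clec4d and Clec4e on chromosome 6, higher by 2.86 to 5.20, S100a6, S100a8 and S100a9 on chromosome 3, higher by 3.89 to 9.17, and the schlafen genes Slfn2, Slfn1 and Slfn4 on chromosome 11, higher by 4.50 to 8.17. Trem1, Trem3 and Treml4 on chromosome 17 and Cd300lb, Cd300ld and Cd300c2 on chromosome 11 were others. The longest lower run joined unrelated genes on chromosome 3: Zfp639, Mfn1, Gnb4, Actl6a, Mrpl47 and Ndufb5, with differences from −4.37 to −2.06. Near-identical family members can share probes, so neighbours of 1 family are not independent measurements.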

How the data were processed

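Per the labels, RNA of 50 to 200 cells per type was amplified in 2 rounds before hybridization, which favours the 3′ end of transcripts and adds noise from few cells. The deposited values are 1 linear intensity per probe set and array; which software made them is not given in the sources used here, nor are calls of presence. Values were used as deposited, on 1 scale. Gene symbols came from GEO's platform annotation, promoters, gene order and lengths from RefSeq (GRCm38.p6, names matched by Entrez number).

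Intensities under 120 were set to 120, and a difference with 1 side under 120 is a lower bound. A gene was taken at its member probe set with the highest mean log2 signal, and genes that never reached 120 count in their list at a difference of 0. Named genes were the 15 largest differences in each direction (brighter side at or above its array's 75th percentile, all probe sets of 1 sign, no unnamed clones), and members of the 39 gene lists, with the largest and smallest of each. Of 1020 list entries, 69 had no probe set of 1 symbol and were not analysed here. The members and lists were chosen with earlier results of these data known. The lists were not drawn up as independent evidence. Alternatives were another floor, no floor, 3 scalings, other ways to choose a gene's probe set, leaving out probe sets that can detect several genes, and counting genes.

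Python 3.11.15, numpy 2.4.6, pandas 2.3.3 and matplotlib 3.10.9 were used. The steps were tested on simulated data with 200 changed genes.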

Additional observations from a re-analysis of the deposited data

Results flagged for a closer look

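Probe sets outside the comparison also held large differences between granulocytes and HPC. Of 664 probe sets annotated to several genes that reached 120 on either array, 42 (6.33%) stood at least 4-fold above HPC and 88 (13.3%) below. Of 4473 with no gene symbol, 347 (7.76%) stood at least 4-fold above HPC and 163 (3.64%) below. Higher probe sets thus outnumbered lower ones among those without a symbol, while lower ones outnumbered higher ones among those with 1 symbol. The cause was not tested.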

How the results depend on the processing

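No paired analysis was possible because each cell type has 1 array, and no replicate could be left out. Without a floor, 3147 probe sets were at least 4-fold higher and 3877 lower. When scaled to the hybridization controls, 875 were higher and 3547 lower, and counted as genes at their brightest probe set, 789 were higher. The other 9 counts stayed within 1.5 times the main ones. Of the 39 list medians, 25 moved by over 0.5 on the log2 scale when scaled to the hybridization controls. Over all settings, that of progenitor surface genes ran from −1.74 to −0.50, with the last at a floor of 240, that of primary granule genes from −7.02 to −5.72, and that of DNA replication from −3.66 to −2.51. Lists near 0 changed sign: that of autophagy and ubiquitin-like genes ran from −0.17 to 0.92, that of apoptosis regulators from −0.53 to 0.45, and those of megakaryocyte and stromal genes reached −0.01 and −0.10. For the 30 genes of largest difference, 202 values under the alternatives stayed within 1.08, the SD between probe sets of 1 gene, and 37 did not. Their direction could hardly change, since they were chosen as the largest differences with probe sets of 1 sign. Bms1 gave −2.71 from its first probe set, Fkbp1a −2.11 and Ide −2.87. With 1 array a side, a gene whose dimmer signal is under 120 has only a lower bound, which holds for 546 of 1485 higher and 993 of 2316 lower probe sets.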

Other observations

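Further genes with large differences lay outside the lists, and those named here were chosen after their values were seen. Cxcl2, a chemokine that attracts neutrophils, gave 34434 in granulocytes and 540 in HPC, and Ccl6 19018 and 420. Thbs1 (thrombospondin 1) gave 6757 and 50.8, and Wfdc21 14068 and 18.2. Iron and lipid handling were represented by Slc40a1 (ferroportin, which exports iron) at 15490 against 311, Slc11a1 (a metal transporter of phagosomes) at 14287 against 386 and Dgat1 (the last step of triglyceride synthesis) at 15141 against 433. The nuclear noncoding RNA Malat1 gave 25395 against 295.

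On the lower side outside the lists were further genes of replication control and repair. Timeless and Tipin, partners at the replication fork, gave 11.2 against 4033 and 109 against 3610. Topbp1, which activates the replication checkpoint, gave 268 against 6258, and Ung, which removes uracil from DNA, 138 against 3122. C1qbp, a mitochondrial matrix protein, gave 932 against 24153. Bex1 gave 4.8 against 3536 and Ctla2a 23.9 against 5262.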
